A study of Rattus norvegicus with 4 samples.

Results

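Gapdh and Ldha are 2 glycolytic genes that were printed as controls on the arrays of this study. They were taken by their symbol in the platform's probe annotation, where Gapdh carries the older symbol Gapd. Each gene had 16 wells, so the pair made up 32 of 28800 probes and 2 of the 10 genes that could be named. The study asked how obesity affects RNA levels in the right atrium of SHHF rats, a strain prone to hypertension and heart failure in which the corpulent (cp) allele of the leptin receptor gene is recessive. The obese animals were male, 10 months old, and had hypertension, the metabolic syndrome and dilated cardiomyopathy starting at that age, per the labels. The lean animals were males of the same strain and age with hypertension and a later start of cardiomyopathy, and carried either no cp allele or a single copy. All rats received the same diet and no treatment. Each of the 4 glass arrays held RNA of 1 obese and 1 lean rat in 2 colours. Cy5 labelled the obese RNA in the pairs obese 5 with lean 3 and obese 4 with lean 4. Cy3 labelled it in the pairs obese 3 with lean 4 and obese 1 with lean 5. Lean rat 4 was thus hybridised on 2 arrays, and 3 different lean rats are named although the series description speaks of 4. The label of the RNA extraction names the left ventricle, all others the right atrium. None of 18 marker genes of atrial and ventricular myocytes, adipocytes, fibroblasts, leukocytes and blood was named on the array, so the tissue label was not checked against its markers.

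Glycolysis splits glucose into pyruvate in the cytosol and yields ATP without oxygen. Gapdh encodes glyceraldehyde-3-phosphate dehydrogenase, the enzyme of the pathway that reduces NAD+ to NADH, and its transcript is widely used as a reference in expression studies. Ldha encodes the A subunit of lactate dehydrogenase, which turns pyruvate into lactate and regenerates the NAD+ that glyceraldehyde-3-phosphate dehydrogenase consumes. Heart muscle draws most of its ATP from the oxidation of fatty acids, and its lactate dehydrogenase is built largely of the B subunit, the product of Ldhb. Ldha is a known target of the hypoxia-inducible factor HIF1. Of 25 genes of glycolysis and glucose use (among them Slc2a4, Hk2, Pfkm, Ldhb and Pdk4), these 2 were the ones named on the array. The remaining members have no value under a name here.

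In the GRCr8 annotation, Gapdh lies on chromosome 4 (159648592 to 159653436) and Ldha on chromosome 1 (106508092 to 106517512). The same annotation lists 81 entries named as Gapdh pseudogenes, of which 79 have a pseudogene biotype and 2 are annotated as protein coding, and 30 named as Ldha pseudogenes. Probe sequences were not used here, so whether the oligonucleotides also bind transcripts of such copies was not tested, and the values below are those of the wells annotated with each gene. The 250 bases upstream of a transcription start of each gene are printed as background. They come from RefSeq (build GRCr8), at chr4:159652468-159652717 on the minus strand for Gapdh and chr1:106507842-106508091 on the plus strand for Ldha, and both genes were matched by symbol. The start used for Ldha is the 5′ end of the annotated gene, while that used for Gapdh lies 969 bases inside the 5′ end, so the Gapdh window is within the annotated gene. Capitals mark matches on either strand to 4 motifs, namely ACGTG (1 form of the core of the HIF response element), TGACGTCA (the cAMP response element), TATAAA (the TATA box) and GGGCGG (the GC box). Other forms of that core were not marked or counted.
Gapdh: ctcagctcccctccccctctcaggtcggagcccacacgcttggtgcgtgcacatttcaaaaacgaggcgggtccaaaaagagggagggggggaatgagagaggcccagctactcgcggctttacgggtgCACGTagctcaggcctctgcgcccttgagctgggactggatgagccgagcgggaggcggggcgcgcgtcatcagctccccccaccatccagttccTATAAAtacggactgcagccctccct
Ldha: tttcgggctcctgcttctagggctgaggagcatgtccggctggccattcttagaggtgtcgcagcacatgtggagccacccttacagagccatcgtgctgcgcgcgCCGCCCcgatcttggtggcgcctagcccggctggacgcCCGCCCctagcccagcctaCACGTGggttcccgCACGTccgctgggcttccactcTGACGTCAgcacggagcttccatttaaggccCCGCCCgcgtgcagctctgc
Both sequences held ACGTG, once in Gapdh (117 to 121 bases before the start, minus strand) and at 3 places in Ldha, of which 2 overlap on opposite strands at 82 to 87 bases before the start and the other lies at 69 to 73. Of 33469 rat promoters of the same length, 16.6% held this motif. The full TGACGTCA was present in Ldha (44 to 51 bases before the start) and in 1.59% of all promoters. Ldha also held 3 GC boxes, a motif found in 30.5% of promoters. Gapdh held a TATA box (21 to 26 bases before the start), a motif found in 12.9% of promoters. These matches describe the letters of each window and are not evidence of binding. Whether they relate to the ratios was not tested.

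All 32 wells lay on plate 73, in rows C, D, G, H, K, L, O and P. Gapdh occupied columns 13 and 14, and Ldha columns 1 and 2. With wells read as printed by a head of 48 pins (4 rows by 12 columns), the 2 genes shared the same 4 pin positions. A value was called repeated where at least 5 probes of an array held exactly the same value, as happens where both intensities of a spot are small whole numbers. Of the Gapdh wells, 10 of 16 held no repeated value and had a value on all arrays, and of the Ldha wells 11 of 16. Wells of a gene on an array share the same RNA of 1 obese and 1 lean rat, so they measure technical spread and the array is the replicate. The share of wells without repeated values over both genes was 65.6%, against 67.2% of the wells of the other named genes and 62.8% of all probes.

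The 4 Gapdh wells in rows O and P stood apart from the other 12. On the array of obese rat 5 they lay at -4.17, -1.85, -1.85 and -0.85 on the log2 scale as deposited. As linear ratios those are 0.2, 1, 1 and 2 times the commonest ratio of that array, that is, ratios of small whole numbers, and these wells are called dim below although their intensities were not used here. On the array of obese rat 3 the 4 wells were at 0.111 to 0.7 times the commonest ratio. On that of obese rat 4, 3 wells were at 3, 7 and 0.4 times, and the other, 73P13, was at 1.77 times, a value that no other probe held. On that of obese rat 1, where 73P14 had no value, the other 3 were at 1, 1.20 and 1 times. The place was shared with other genes. All 24 wells in rows O and P and columns 13 to 24 of this plate had a repeated or missing value, against 5 of 24 in the same rows of columns 1 to 12, which hold Ldha, and 37.2% of wells over all plates. Over all 16 wells the SD between Gapdh wells was 0.49 to 1.15 per array, and over the 10 wells without repeated values it was 0.04 to 0.13.

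**Figure D1:**
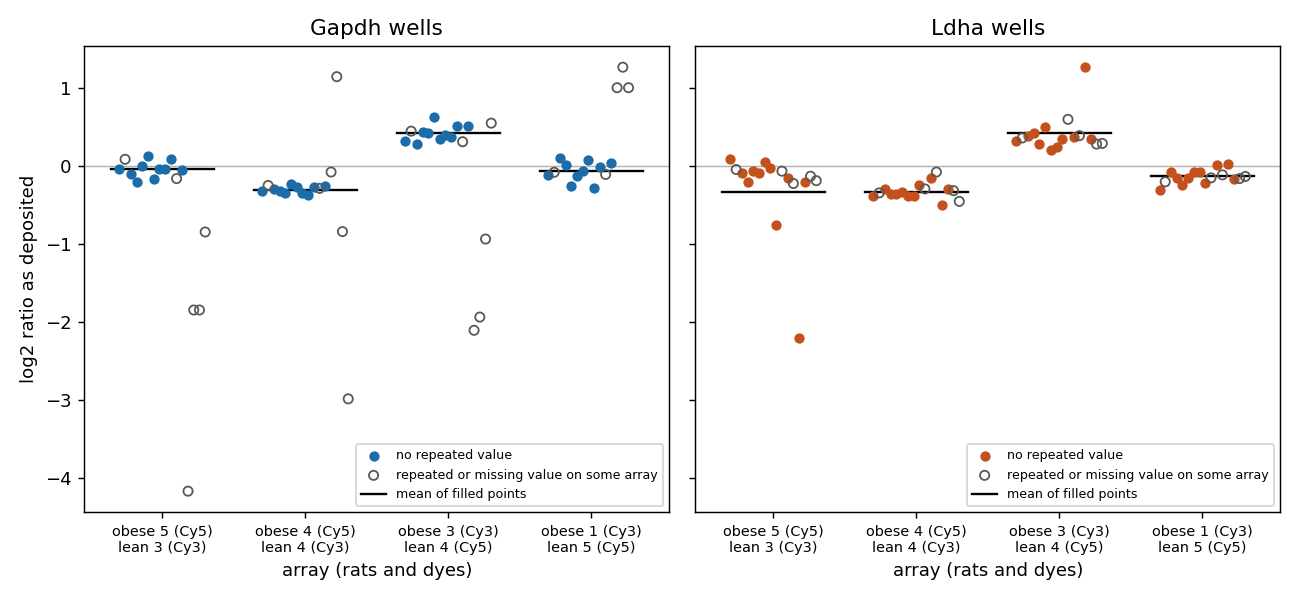
Log2 ratio as deposited (vertical axis) of every Gapdh and Ldha well on each of the 4 arrays (horizontal axis, with the rats and dyes). Filled points are wells without repeated values, open points the others, and black lines the means of the filled points. The open Gapdh points reach -4.17 on the array of obese rat 5, while the SD of the filled ones is at most 0.13, and Ldha well 73O01 lies at -2.21 there.

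On wells without repeated values, Gapdh differed from 1 array to another far more than from well to well. The 10 wells lay between -0.21 and 0.13 (median -0.04) with obese rat 5, and between -0.37 and -0.24 (median -0.31) with obese rat 4. They lay between 0.28 and 0.62 (median 0.40) with obese rat 3, and between -0.28 and 0.09 (median -0.04) with obese rat 1. All 10 wells were above 0 with obese rat 3 and all 10 below 0 with obese rat 4, so these 2 arrays, which share lean rat 4, did not overlap, while the wells of the remaining arrays lay on both sides of 0. Of all probes without repeated values, 41.3% were likewise above 0 with obese rat 3 and below 0 with obese rat 4. The array means were -0.04 ± 0.10, -0.31 ± 0.04, 0.42 ± 0.10 and -0.07 ± 0.13 in the same order (SD, n = 10 wells). The SD between the 4 array means was 0.30 as deposited. It was 0.23 after a change of sign on the 2 arrays whose obese RNA was in Cy3. Over all 16 wells the means were -0.58, -0.40, 0.03 and 0.16 in that order. The dim wells thus moved the mean with obese rat 5 away from 0, turned the sign with obese rat 1 and brought the mean with obese rat 3 near 0, and the median over all 16 wells was -0.08, -0.30, 0.38 and -0.02.

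Ldha, whose wells in rows O and P were mostly like its other wells, gave the same pattern with and without repeated values. Over its 11 wells without them, the values ran from -2.21 to 0.08 (median -0.10) with obese rat 5, and from -0.50 to -0.16 (median -0.36) with obese rat 4. They ran from 0.20 to 1.26 (median 0.35) with obese rat 3, and from -0.31 to 0.02 (median -0.16) with obese rat 1. Again every well was above 0 with obese rat 3 and below 0 with obese rat 4, as were 41.3% of probes without repeated values. The array means were -0.33 ± 0.66, -0.34 ± 0.09, 0.42 ± 0.29 and -0.13 ± 0.11 (SD, n = 11 wells). The wide spread with obese rats 5 and 3 came from few wells. Well 73O01, the lowest Ldha well over the 4 arrays, had -2.21 with obese rat 5 and 1.26 with obese rat 3, and 73K01, named after its values were seen, had -0.75 with obese rat 5. Without 73O01 and 73K01 the means of the other 9 wells were -0.08 ± 0.10, -0.33 ± 0.07, 0.34 ± 0.09 and -0.14 ± 0.10 (SD). Over all 16 wells the means were -0.27, -0.33, 0.41 and -0.14.

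Well by well, the ratios of the 2 genes were close outside rows O and P. Each Gapdh well has an Ldha well in the same row at the same pin position, 12 columns away, and 12 such pairs lie in rows C to L, outside the dim corner. Within these pairs Gapdh minus Ldha was 0.00405 ± 0.10, 0.05 ± 0.09 and 0.08 ± 0.11 for obese rats 4, 3 and 1 (log2, SD, n = 12 pairs), and all 12 differences were under 0.2 in size on each of these arrays. With obese rat 5 it was 0.09 ± 0.23 (median 0.03), and 9 of 12 pairs were within 0.2. Rows C to L were chosen after the values were seen, and these figures are given as a description. Over all pairs, with rows O and P included, the SD per array was 0.48 to 1.03. No such differences were computed for pairs of other probes.
Across the 4 arrays the difference of the gene means over wells without repeated values was 0.29, 0.03, -0.00248 and 0.07 as deposited with obese rats 5, 4, 3 and 1, a mean of 0.10 ± 0.13 (SD, n = 4). The exact two-sided sign-flip test over 4 arrays gave p = 0.25, and the smallest p it allows lies above 0.05. The differences with obese rats 5 and 3 include Ldha well 73O01. Without that well, the Ldha means there were -0.15 and 0.34, against Gapdh means of -0.04 and 0.42, and the test was not repeated. Over all wells the differences were -0.31, -0.07, -0.38 and 0.30 (mean -0.11 ± 0.31, exact sign-flip p = 0.375). By medians over wells without repeated values, the mean difference was 0.07 (SE 0.02) as deposited and -0.02 (SE 0.04) after turning, so its sign depended on the reading. A difference between both genes within an array is not moved by how the array was centred.

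**Figure D2:**
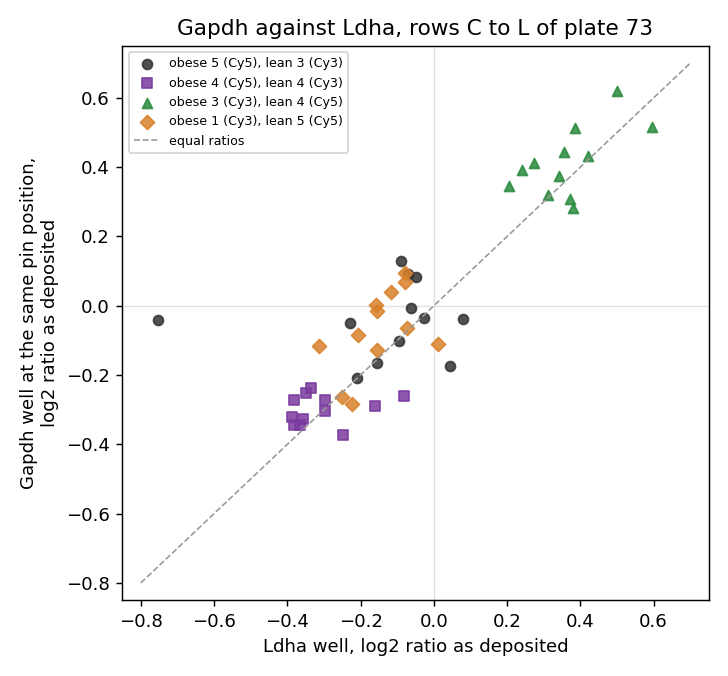
Gapdh well (vertical axis) against the Ldha well of the same row and pin position (horizontal axis), log2 ratios as deposited, 12 pairs on each of the 4 arrays (symbols). Points lie along the dashed line of equal ratios, with all pairs of obese rat 3 above 0 on both axes and all pairs of obese rat 4 below 0 on both, and the point far to the left is 73K01 with obese rat 5.

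The pattern across arrays reads differently under each reading of the columns, since the numerator of the ratio is not stated in the sources used here. If each column is the ratio of Cy5 to Cy3, Gapdh over its wells without repeated values was at 0.970, 0.809, 0.747 and 1.05 times the lean level in obese rats 5, 4, 3 and 1, and Ldha at 0.793, 0.791, 0.746 and 1.10 times. The Ldha mean with obese rat 5 was drawn down by few wells. By the median over the same wells Ldha was at 0.936 times the lean level in that rat. Both genes were then below the lean level in 3 of 4 obese rats, and obese rats 3 and 4 lay close together when set against their common partner, lean rat 4 (obese 3 over obese 4 was 0.923 for Gapdh and 0.943 for Ldha). If the columns hold obese over lean, Gapdh was at 0.970, 0.809, 1.34 and 0.955 times the lean level and Ldha at 0.793, 0.791, 1.34 and 0.912 times in the same order. By medians over the same wells, Ldha was at 0.936 times with obese rat 5 and 1.27 times with obese rat 3 under this reading. Obese rat 3 was then above lean rat 4 and obese rat 4 below it, with 1.65 times as much Gapdh and 1.70 times as much Ldha in obese rat 3 as in obese rat 4. Over all wells obese 3 over obese 4 was 1.29 for Gapdh and 0.944 for Ldha under the first reading, so the Gapdh order turned with the wells used, and 1.35 and 1.67 under the second. On these 2 arrays the obese RNA carried opposite dyes. Under either reading, a dye effect of a gene cannot be told apart from a difference between these rats. The Ldha ratios also include well 73O01. Without it, the Ldha log2 means as deposited were 0.34 with obese rat 3 and -0.32 with obese rat 4. If the columns hold the inverse of either ratio, every direction turns round. The labels place the obese animal in channel 1 on all 4 arrays and swap the dyes between them, and the values of these genes do not decide between the readings.

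Both readings were therefore tested, as 2 contrasts. The alternating contrast averages the 4 arrays after a change of sign on both arrays whose obese RNA was in Cy3, and gives obese over lean under the reading Cy5 over Cy3. The common contrast averages the columns as deposited, which gives obese over lean if that is what they hold, and each contrast measures the dye under the other reading. Neither gene passed the threshold in either contrast, with all wells or with those without repeated values (limma, Benjamini-Hochberg adjusted p below 0.05 over 28553 rows). Of these rows, 2.1% were called in the alternating contrast with all wells and 2.09% with wells without repeated values, and 0% in the common contrast. The choice of wells applied to the 10 named genes only, and unnamed probes with repeated values stayed among the rows of both fits. With all probes with repeated values left out, 2326 of 18100 probes were called in the alternating contrast.

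In the alternating contrast, Gapdh had a mean log2 ratio of -0.29 over all wells (SE 0.11, 95% interval -0.56 to -0.02, limma adjusted p = 0.157). Its unadjusted p in the limma fit was 0.0378. After turning it was negative on 4 of 4 arrays, and even so the exact sign-flip p, the smallest that 4 values allow, lies above 0.05. Over wells without repeated values Gapdh was at -0.18 (SE 0.10, 95% interval -0.43 to 0.08, limma adjusted p = 0.317), negative on 3 of 4 arrays, so the unadjusted p under 0.05 and the single sign rested on the wells with repeated values. Ldha was at -0.22 over all wells (SE 0.11, 95% interval -0.49 to 0.05, limma adjusted p = 0.253) and at -0.24 over wells without repeated values (SE 0.11, 95% interval -0.52 to 0.04, limma adjusted p = 0.223), negative on 3 of 4 arrays in both cases. The mean over wells without repeated values was -0.16 without well 73O01 and -0.15 without 73K01 as well, with no test. The array with the opposite sign was that of obese rat 1. By the median over all wells, which the few outlying wells hardly move, the genes were at -0.19 and -0.16 (limma adjusted p = 0.253 and 0.362).

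In the common contrast, Gapdh was at -0.20 over all wells (SE 0.15, 95% interval -0.58 to 0.19) and at 0.00142 over wells without repeated values (SE 0.14, 95% interval -0.35 to 0.35). Ldha was at -0.08 (SE 0.15, 95% interval -0.46 to 0.29) and -0.10 (SE 0.16, 95% interval -0.49 to 0.30) in the same order. The limma adjusted p was 1.00 for each. The number of arrays limits the precision, and the tests treat the 4 arrays as independent although lean rat 4 is on 2 of them.

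**Figure D3:**
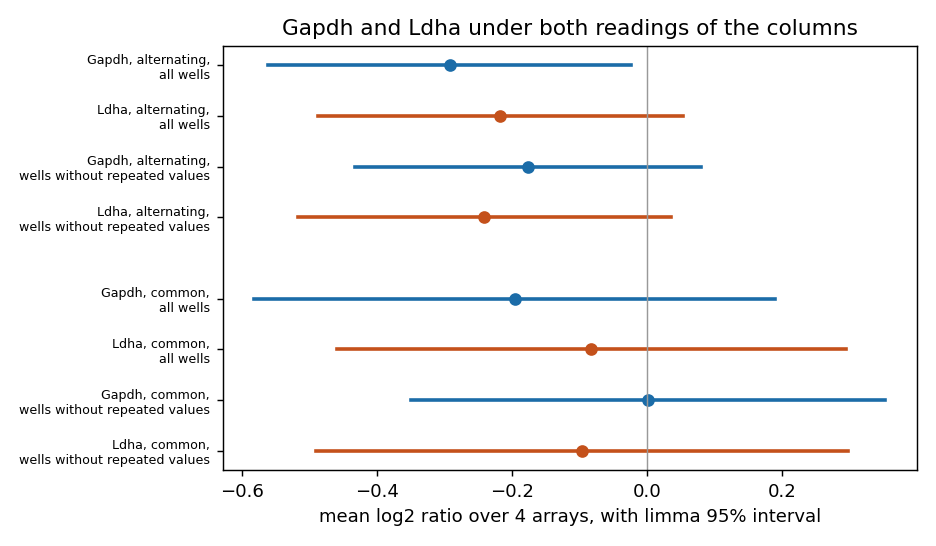
Mean log2 ratio over 4 arrays (points) with limma 95% intervals (lines) for Gapdh and Ldha in the alternating and the common contrast, with all wells and with wells without repeated values. The interval of Gapdh in the alternating contrast over all wells (-0.56 to -0.02) leaves out 0, and the other 7 include it.

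Of 28702 probes with a value on all arrays, 578 (2.01%) were called in the alternating contrast (limma adjusted p below 0.05). Among them were 0 of the 15 Gapdh wells and 0 of the 16 Ldha wells tested, with 2 and 1 wells at an unadjusted p under 0.05, which 27.9% of all probes reached. The mean after turning was negative in 15 of 15 Gapdh and 16 of 16 Ldha wells, against 50.5% of probes. The ratio was negative on all 4 arrays in 4 Gapdh and 2 Ldha wells, against 18.6% of probes. Among Gapdh wells, 73O14 was highest (-0.00784, SE 0.66) and 73O13 lowest (-0.79, SE 0.94), both in the dim corner. Among Ldha wells, 73C01 was highest (-0.08, SE 0.14) and 73O01 lowest (-0.999, SE 0.35, limma adjusted p = 0.141). As deposited, 12 of 15 Gapdh and 16 of 16 Ldha wells were above 0 with obese rat 3 and below 0 with obese rat 4, against 39.8% of all probes. Of wells without repeated values, 10 of 10 and 11 of 11 were, against 41.3% of such probes. Wells of a gene share the same RNA on each array, so none of these counts of wells holds independent observations. The shares over probes stand beside them with no test. In the common contrast 0 wells of either gene had an adjusted or unadjusted limma p under 0.05, against 0% and 0.951% of probes.

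The largest departures from 0 that single wells shared were on the arrays of lean rat 4. With only the 2 arrays that do not hold that rat, an alternative chosen after seeing the data, Gapdh over wells without repeated values was at 0.01 in the alternating contrast (SE 0.12, limma adjusted p = 0.969) and Ldha at -0.10 (SE 0.17, limma adjusted p = 0.781), against -0.18 and -0.24 with all 4. With the 2 arrays of lean rat 4 averaged into 1 replicate, Gapdh was at -0.11 (limma adjusted p = 0.595) and Ldha at -0.19 (limma adjusted p = 0.432). Without obese rat 3 Gapdh was at -0.09 (limma adjusted p = 0.612). Without obese rat 1, in contrast, Ldha was at -0.37 (SE 0.08, limma adjusted p = 0.0714), its lowest adjusted p among the settings tried. All of these Ldha values include well 73O01. Without that well, the Ldha means after turning were -0.15, -0.32, -0.34 and 0.15 with obese rats 5, 4, 3 and 1, and no fit was run.

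The medians by pin position differed between the arrays. At the 4 pin positions that hold both genes, the mean of the group medians (1561 probes without repeated values) was -0.20, -0.06, -0.02 and 0.12 for obese rats 4, 1, 5 and 3, the same order of arrays as for Gapdh. Ldha had this order by medians over wells without repeated values. By means it did not, with obese rat 5 (-0.33) below obese rat 1 (-0.13). The part of well position in the results was not tested beyond its subtraction. After subtraction of the group medians, Gapdh over wells without repeated values was at -0.03, -0.10, 0.30 and -0.00194 as deposited with obese rats 5, 4, 3 and 1, and Ldha at -0.33, -0.14, 0.31 and -0.06. The alternating contrast was then -0.11 for Gapdh (SE 0.07, limma adjusted p = 0.445) and -0.18 for Ldha (SE 0.08, limma adjusted p = 0.308). With obese rat 3 more of each ratio was left than the medians held, while with obese rat 4 less was left. Between the pin positions of a gene the order was not the same throughout. In rows C, G and K, the mean of 3 Gapdh wells was higher in column 14 than in column 13 on each array (0.53 and 0.37 with obese rat 3). In rows D, H and L it was so on the other arrays but not with obese rat 4 (-0.31 in column 14 and -0.29 in column 13). The mean of 3 Ldha wells in rows C, G and K was higher in column 2 than in column 1 on each array (0.48 and 0.31 with obese rat 3), but with obese rat 5 the medians had the opposite order (-0.07 and -0.06), and 73K01 is among those wells. In rows D, H and L, Ldha column 2 was below column 1 with obese rat 5 (-0.16 and -0.07) and obese rat 1 (-0.12 and -0.05).

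The place of Gapdh and Ldha among the 10 control genes depended on the set of wells. Over wells without repeated values, they were the lowest of all with obese rat 4, where the other 8 genes lay between -0.20 (Lxn) and 0.54 (Rpl5). With obese rat 3 each exceeded 7 of the other 8 genes, which lay between -0.56 (Rps9) and 0.54 (Lxn). Ldha was also the lowest gene with obese rat 5, at -0.33, where 1 of the other 8 lay below Gapdh. That place of Ldha rested on wells 73O01 and 73K01. Without both, its mean was -0.08, above Hspa1a at -0.10. Over all wells, 3 of the other 8 genes lay below each of them with obese rat 4, and with obese rat 3 Gapdh exceeded 4 and Ldha 7 of them. Against probes without repeated values, the Gapdh mean exceeded 95.2% of them with obese rat 3 and 7.99% with obese rat 4, and the Ldha mean 95.3% and 5.97%. With obese rats 5 and 1 the Gapdh mean exceeded 35.0% and 44.2% of them, and the Ldha mean 11.2% and 33.7%. The Ldha median exceeded 29.0% of them with obese rat 5 and 90.8% with obese rat 3. Over these wells, the named genes nearest to Gapdh across the 4 arrays were Lxn, which encodes the carboxypeptidase inhibitor latexin, at a root mean square difference of 0.11 log2 units, and Ldha at 0.15. Nearest to Ldha were Gapdh at 0.15 and Rpn2, a subunit of the oligosaccharyltransferase complex, at 0.237, with Lxn next at 0.238. The farthest from both was the ribosomal protein gene Rps9, at 0.75 and 0.85. The distances to Ldha include wells 73O01 and 73K01. Without both, the Ldha means were -0.08, -0.33, 0.34 and -0.14 with obese rats 5, 4, 3 and 1. Distances were not recomputed without them, so the order of Lxn and Ldha next to Gapdh may rest on these wells. Over all wells the neighbours were others. Nearest to Gapdh were then Tcf3, a transcription factor gene with 1 well without repeated values, at 0.07 and the actin gene Actb at 0.22, with Ldha next at 0.288. Nearest to Ldha were Actb at 0.16 and Rpn2 at 0.20, then Hspa1a at 0.27, with Gapdh after them at 0.288. These distances describe 4 arrays and carry no test, and the other genes lie at other pin positions of the plate than Gapdh and Ldha.

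**Figure D4:**
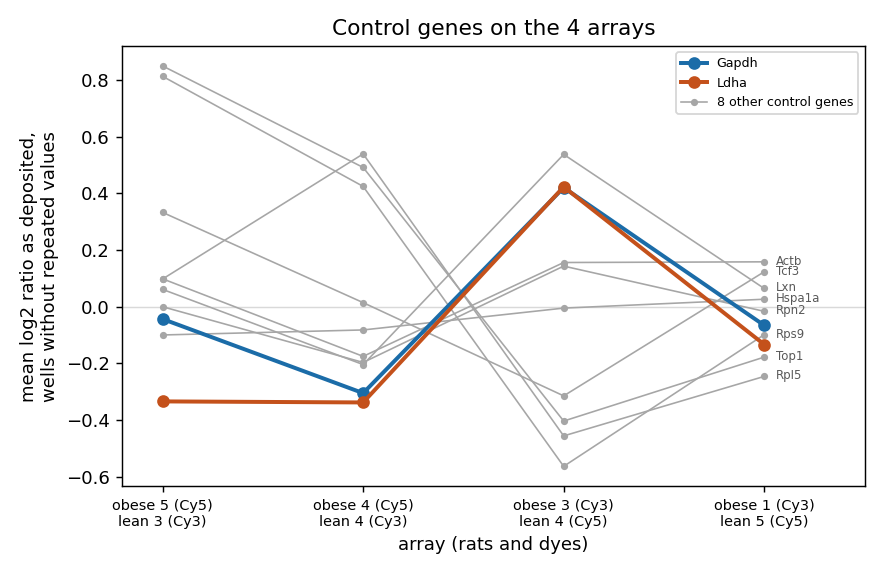
Mean log2 ratio as deposited over wells without repeated values (vertical axis) of Gapdh, Ldha and the 8 other control genes on the 4 arrays (horizontal axis). Lines join the values of 1 gene and stand for no order of the arrays. Gapdh and Ldha coincide at 0.42 with obese rat 3 and are the lowest genes with obese rat 4. Without well 73O01 the Ldha mean with obese rat 3 is 0.34.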

How the data were processed

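RNA was reverse transcribed with Cy3 or Cy5 dCTP and hybridised to 2-colour oligonucleotide arrays, per the labels. The authors deposited 1 log10 ratio per probe and array, each column centred on its mean, as the values show. How the scans were read, corrected and normalized, and which channel is the numerator, is not given in the sources used here; intensities were not used. Ratios were multiplied by log2 of 10 and the centring was kept. Gene values are means over the wells that had a value, and 1 Gapdh well had none on the array of obese rat 1. The whole table, with 10 gene means in place of their wells, was fitted with limma 3.58.1 (lmFit, eBayes, R 4.3.3) and adjusted by Benjamini-Hochberg over 28553 rows. Wells were fitted over 28702 probes. Exact sign-flip tests used the 4 array means. The steps were tested on simulated data. Symbols were updated through the GRCr8 gene table. Single wells named are the highest and lowest of each gene after turning, and control genes the 2 nearest to each member; the others are named as ends of a range. The members, lists and rules were chosen with earlier results of these data known.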

Additional observations from a re-analysis of the deposited data

Results flagged for a closer look

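Of 12 sets of 4 array values looked at, 1 had an array far from the other three, where chance gives about 0.6. It was Ldha over wells without repeated values in the alternating contrast, at -0.33, -0.34 and -0.42 with obese rats 5, 4 and 3 after turning and at 0.13 with obese rat 1. The gap between obese rat 1 and its nearest neighbour was 0.841 of the whole range. It rested on a single well. Without 73O01 the values were -0.15, -0.32, -0.34 and 0.15 in that order of rats and the gap was 0.608 of the range, below the critical value for 4 values, and without 73K01 as well it was 0.461.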

How the results depend on the processing

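The 8 values of Gapdh and Ldha (2 genes, 2 contrasts, 2 sets of wells) were recomputed under 13 alternatives each. In 0 of these 104 fits did a gene pass the threshold, and the lowest limma adjusted p was 0.0714 in the alternating and 0.967 in the common contrast. The sign changed in 6 fits, all of Gapdh over wells without repeated values. In the alternating contrast it was 0.0112 with the 2 arrays without lean rat 4. In the common contrast, where the value was 0.00142, it was -0.012 with median centring, -0.0126 with arrays scaled to 1 spread, -0.0173 with lean rat 4 counted once, -0.0548 with the 2 arrays without that rat, and between -0.14 and 0.10 with each array left out (-0.14 without obese rat 3). Gapdh over all wells stayed between -0.38 and -0.19 in the alternating contrast. Of 48 values of Gapdh minus Ldha, 0 moved by 1 SD, a spread larger than most of the values, and 5 changed sign. These were, over all wells, 0.0638 by medians in the common contrast (-0.11 otherwise) and 0.00159 and 0.000221 without obese rats 5 and 1 in the alternating one (-0.08), and, over wells without repeated values, -0.0167 by medians and -0.0107 without obese rat 5 in the alternating contrast (0.06). No well of either gene was called under any alternative run (limma). The count of all probes called in the alternating contrast, 578 (379 positive, 199 negative), was 2326 without repeated values, 1395 (1042 positive, 353 negative) with scaled arrays, 9 (1 positive, 8 negative) with median centring, 12 (1 positive, 11 negative) with position medians removed, 21 with those of unrepeated probes, 9 with lean rat 4 counted once as well, 18 with that rat counted once alone, 118 with both coefficients fitted, 0 with the 2 arrays without that rat and 3 to 2007 with each array left out. The count of 2326 was among the 18100 probes without repeated values. The common contrast called 0 probes under each of these settings. The arrays carry no replicate numbers shared between groups. Every array already holds an obese and a lean rat, so the tests of the ratios against 0 are paired within arrays. The columns form a single group, and no further pairing between columns was used. Signal over background was not used here, so dim wells without a repeated value could not be identified.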
